A study of Mus musculus with 4 samples.

Results

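Fragments of 6 structural RNAs were followed in mouse fetal liver: the Y RNAs Rny1 and Rny3, the vault RNA Vaultrc5, the 7SK RNA Rn7sk, and the RNA subunits of RNase MRP (Rmrp) and RNase P (Rpph1). Their reads were chosen by sequence alone: a read counted when it was at least 18 nt long, matched no miRNA hairpin and matched the sense strand of one of these GENCODE genes without mismatch. Of 3881 annotated structural RNA genes, 675 were assigned such a read in at least 1 library, these 6 among them. A read that matched several genes was assigned to a single gene. The 6 RNAs received 5823 reads of 1619 distinct sequences, no read matched a pair of them, and 0 matched an antisense strand.

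The libraries held small RNA of wildtype fetal liver and of fetal liver with a catalytic dead Ago2 (Ago2 CD), 2 libraries of each. Among the Argonaute proteins, which carry small RNAs to their targets, Ago2 is known for cutting RNA itself, and the mutant has lost that activity. Total RNA came from dissected and frozen livers, and the design text calls the libraries of a genotype biological replicates. The labels used here give neither the strain, the age of the embryos nor whether livers were pooled. Values below name wildtype replicates 1 and 2, then Ago2 CD replicates 1 and 2, in this order.

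All 6 RNAs are made by RNA polymerase III, which stops in a run of T, so that a new transcript ends in several U. A Y RNA folds its 5′ and 3′ ends into one stem below an internal loop, binds the Ro60 protein and has been linked to the start of DNA replication. Vault RNA is a part of the vault particle, a large barrel of protein in the cytoplasm. The 7SK RNA holds the elongation factor P-TEFb in an inactive state, RNase MRP acts on precursors of ribosomal RNA, and RNase P removes the leader from precursors of tRNA. Pieces of Y and vault RNAs are often found in small RNA libraries.

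The sequences below show where the most frequent pieces lie, in capitals, 5′ to 3′ and in DNA letters as the reads have them, from the GENCODE transcripts of mouse build GRCm38. Each gene is a single exon of a non-coding gene. Rny1 lies on chromosome 6 from 47788069 to 47788180 on the minus strand, and Rny3 on the same chromosome from 47781624 to 47781725 on the plus strand. In Rny1 the capitals mark bases 84 to 110, and in Rny3 bases 1 to 24 and 79 to 101, counted from the 5′ end.
Rny1: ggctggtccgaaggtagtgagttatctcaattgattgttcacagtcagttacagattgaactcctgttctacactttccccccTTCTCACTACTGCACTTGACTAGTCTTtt
Rny3: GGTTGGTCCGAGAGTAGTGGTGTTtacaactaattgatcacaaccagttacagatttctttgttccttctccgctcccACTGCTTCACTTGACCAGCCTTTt
The frequent piece of Rny1 is its 3′ strand of the stem, whereas Rny3 gave both strands, the 5′ strand above all.

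Levels are reads per 1000000 reads outside the Mir451a hairpin, written RPM from here on. That hairpin needs a cut by Ago2 to become a miRNA. It stood at 511124 and 407713 RPM in wildtype and at 2007 and 1791 in Ago2 CD, so that the labels and this readout of the genotype go together. It was kept out of the total because it held a large part of the wildtype reads and few of the Ago2 CD reads. The libraries held 13138065 to 21875540 reads, of which 9265455 to 21828040 lay outside that hairpin, and 28.3% to 51.3% of the latter were at least 18 nt long and matched no hairpin. The longest read was 50 nt in wildtype 1 and Ago2 CD 2 and 46 nt in wildtype 2 and Ago2 CD 1. These pairs, with 1 library of each genotype, are called the 50 nt and the 46 nt libraries. The labels do not say why the longest read differs. Hairpins of the hepatocyte miRNA Mir122 (11510 to 61629 RPM), of the myeloid and lymphoid Mir223 and Mir142, and of the erythroid Mir144 and Mir486 were found in every library. The neuronal hairpins Mir9-2 and Mir124a-1 reached 195 and 61.4 RPM in wildtype 2 and 236 and 51.3 in Ago2 CD 1, against at most 7.76 in the 50 nt libraries. The muscle hairpins Mir133a-1 and Mir206 were highest in wildtype 1, at 172 and 75.2 RPM, against at most 11.2 in the others.

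No member passed the test for a difference between the genotypes. The 6 RNAs together had 72.9 and 90.0 RPM in wildtype versus 101 and 133 in Ago2 CD. Both Ago2 CD libraries lay above both wildtype libraries, and structural RNA reads of all kinds did so too, with 1303 and 1563 against 2434 and 2784 RPM. As a share of all structural RNA reads, the 6 RNAs made up 5.59% and 5.76% in wildtype versus 4.17% and 4.77% in Ago2 CD, so that this share lay lower in both Ago2 CD libraries. An exact permutation test gave p = 0.333 for each of these 3 quantities, the smallest that 2 libraries against 2 allow. In edgeR's quasi-likelihood test with Benjamini-Hochberg adjustment, 0 of 146 structural RNA genes were called higher and 0 lower (0%), with 2 at an unadjusted p under 0.05. DESeq2, run on all 675 genes with an assigned read, called 0 as well, with 3 at an unadjusted p under 0.05. In bulk tissue, fewer cells of a type and less RNA per cell cannot be told apart.

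**Figure D1:**
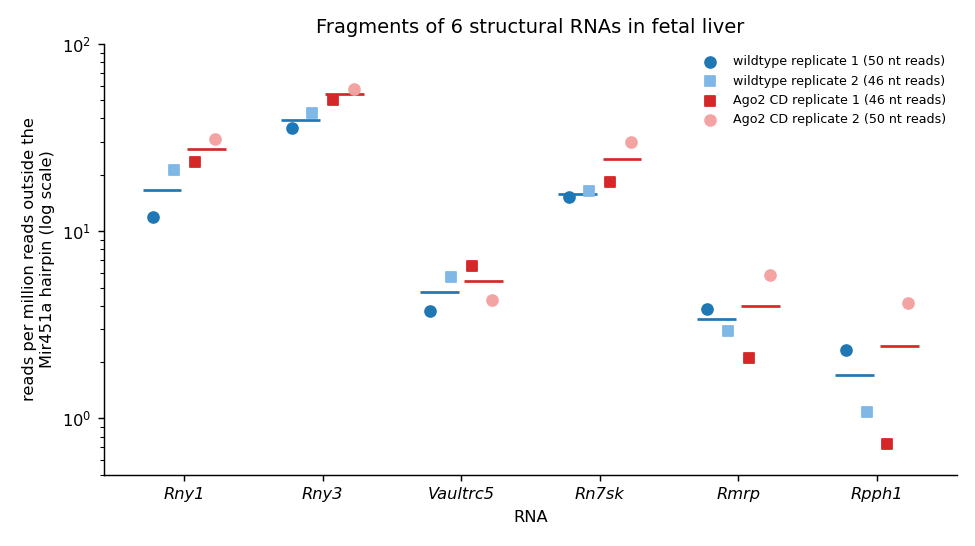
RPM, reads per 1000000 reads outside the Mir451a hairpin (log scale), on each of the 6 RNAs. Points are libraries (circles 50 nt, squares 46 nt libraries) and lines are the means of the 2 libraries of a genotype. Both Ago2 CD points lie above both wildtype points for Rny1, Rny3 and Rn7sk, and the genotypes overlap for Vaultrc5, Rmrp and Rpph1.

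Among the Y RNAs, Rny1 had 11.95 and 21.3 RPM in wildtype versus 23.5 and 31.1 in Ago2 CD. Rny3 had 35.8 and 42.6 in wildtype versus 50.1 and 57.3 in Ago2 CD. For both, the Ago2 CD libraries lay above the wildtype libraries, by 1.11 times within the 46 nt libraries and 2.60 times within the 50 nt libraries for Rny1, and by 1.18 and 1.60 times for Rny3. The log2 difference was 0.72 (SE 0.55) for Rny1 and 0.46 (SE 0.54) for Rny3, each with an adjusted p of 0.942 in edgeR's quasi-likelihood test with 2 libraries per genotype. Approximate 95% intervals of these differences, taken from the SE by the normal distribution, were -0.37 to 1.80 and -0.60 to 1.51. They include both a decrease and an increase, and are narrower than the edgeR test itself would give. For Rny1 the value was 0.36 without wildtype 1 and 1.19 without wildtype 2. Of the Rny1 reads 77.9% matched no other annotated gene. Counted from these alone, Rny1 had 8.58 and 17.3 RPM in wildtype versus 20.2 and 21.7 in Ago2 CD. The shares by position given below for Rny1 include its other reads.

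Rn7sk had 15.2 and 16.4 RPM in wildtype versus 18.4 and 30.1 in Ago2 CD. These groups did not overlap, but only 32.3% of its reads matched no other annotated gene, the rest also matching other genes of the annotation. Counted from its own reads alone, Rn7sk had 4.24 and 7.55 against 7.10 and 7.17 RPM, and the genotypes overlapped. Its log2 difference over all its reads was 0.61 (SE 0.53), with an adjusted p of 0.942 by edgeR, and it was 0.22 without Ago2 CD 2 and 0.93 without Ago2 CD 1.

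Vaultrc5, on chromosome 18 from 36801866 to 36802008 on the plus strand, had 3.76 and 5.72 RPM in wildtype versus 6.51 and 4.27 in Ago2 CD, with a log2 difference of 0.19 (SE 0.52). Rmrp had 3.85 and 2.91 in wildtype versus 2.11 and 5.85 in Ago2 CD, with a log2 difference of 0.22 (SE 0.61). Rpph1, the rarest, had 2.31 and 1.08 in wildtype versus 0.733 and 4.14 in Ago2 CD, which rest on 24, 10, 16 and 63 reads, with a log2 difference of 0.49 (SE 0.83). For these 3 RNAs the genotypes overlapped, and edgeR's adjusted p was 0.942 for each. For the RNA subunits of both enzymes, Ago2 CD 2 was the highest and Ago2 CD 1 the lowest of the 4 libraries. Within the 46 nt libraries Ago2 CD stood at 0.723 times wildtype for Rmrp and 0.679 times for Rpph1, and within the 50 nt libraries at 1.52 and 1.79 times. Only 29.2% of the Rpph1 reads matched no other annotated gene, most of the rest also matching a transcript of the protein-coding gene Ccnb1ip1, so its level is uncertain.

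In 3 of the 6 RNAs both Ago2 CD libraries lay above both wildtype libraries, and in 0 below. Over all 146 genes tested, 20.5% had this arrangement and 8.22% the opposite one. The median log2 difference was 0.47 over the 6 RNAs and 0.27 over all genes tested, and these values depend on the scaling: with TMM factors the median of all genes was -0.06 and 4 of the 6 RNAs had a value above 0 instead of 6.

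Per 100 bases of RNA, averaged over the 4 libraries, Rny3 stood at 45.6 RPM, Rny1 at 19.6, Rn7sk at 6.05, Vaultrc5 at 3.54, Rmrp at 1.31 and Rpph1 at 0.648. Each library gave the same order of these length-scaled levels. Neighbours in it did not overlap over the 4 libraries except Rmrp (0.750 to 2.08) and Rpph1 (0.230 to 1.299). Counted from reads of a single gene, Rn7sk had a length-scaled level of 1.28 to 2.28 and came after Vaultrc5 with 2.49 to 4.39, so the place of Rn7sk depends on the reads it shares with other genes.

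The pieces of Rny1 came mainly from its 3′ end. The share of its reads that ended within the last 5 bases was 57.3% and 46.7% in wildtype versus 61.1% and 50.3% in Ago2 CD (95% Clopper-Pearson intervals 48.1% to 66.1%, 39.6% to 53.9%, 56.7% to 65.3% and 45.7% to 54.9%, covering counting error only). Reads that began within the first 3 bases made up 3.23%, 7.11%, 4.28% and 2.96%. A single first base, base 84 (GRCm38 chromosome 6, 47788097), accounted for 36.3% and 40.1% of Rny1 reads in wildtype versus 49.8% and 33.2% in Ago2 CD. A weaker group of reads lay between the stem strands, with starts at bases 46 and 47 and ends at bases 68 and 69, and coverage there was highest in Ago2 CD 2.

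Rny3 had the opposite balance. Reads that began within its first 3 bases made up 47.2% and 57.5% in wildtype versus 45.4% and 51.3% in Ago2 CD, and nearly all of these began at base 1 (169, 216, 470 and 434 reads). Its 3′ end gave 30.7%, 17.7%, 21.02% and 25.6% of reads, most often from base 79 (78, 70, 194 and 120 reads). Over the 4 libraries the 5′ share was 50.3% ± 5.35 for Rny3 and 4.39% ± 1.90 for Rny1 (SD, n = 4), a difference of 45.9 percentage points that every library showed. A paired exact permutation test gave p = 0.125, the smallest for 4 libraries.

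**Figure D2:**
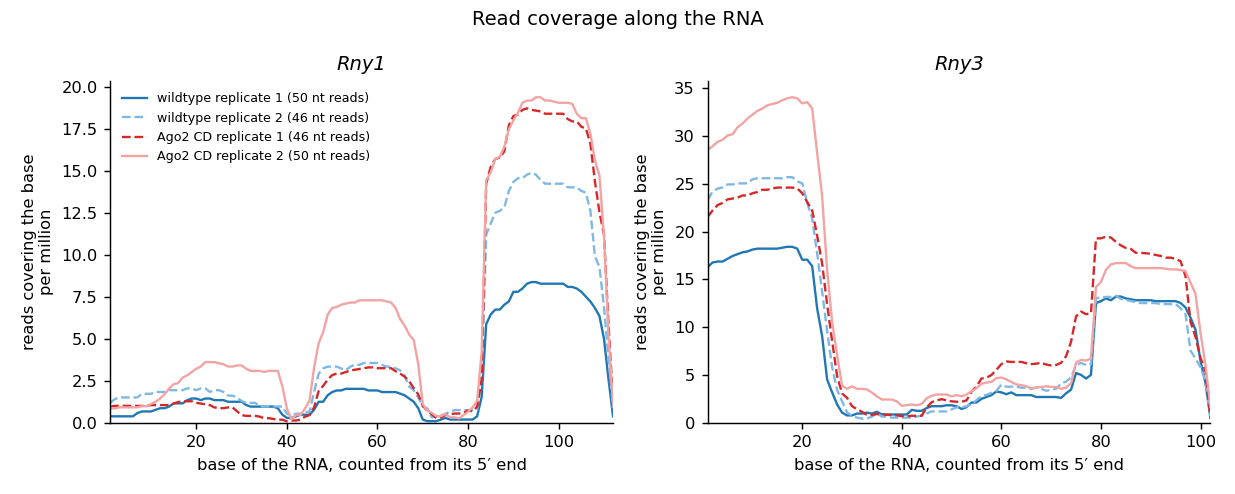
RPM that cover each base of Rny1 and Rny3 (x axis, base from the 5′ end), one line per library (solid 50 nt, dashed 46 nt libraries). Rny1 coverage is highest from base 84 to its 3′ end, and Rny3 coverage is highest over its first bases with a lower block from base 79 on, in all 4 libraries.

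In the structure of lowest energy that RNAfold predicts for each whole RNA, bases 84 to 110 of Rny1 pair with partners between bases 1 and 21, and bases 1 to 24 of Rny3 with partners between bases 73 and 98. These pieces are strands of the terminal stem. In this prediction 17 of the 27 bases of the Rny1 piece and 21 of the 24 bases of the Rny3 piece are paired, and none of them pairs within its own piece. Base 84 of Rny1 is unpaired and base 79 of Rny3 is paired.

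No share of reads at an end passed the test between the genotypes, by limma on the log2 odds. Rny1, Rny3 and Rn7sk had at least 50 reads in every library and were tested among 28 genes. For the 5′ share the log2 difference was -0.52 (SE 0.65) for Rny1 and -0.23 (SE 0.56) for Rny3, each with an adjusted p of 0.923. For the 3′ share it was 0.22 (SE 0.58) and -0.03 (SE 0.63), with adjusted p of 0.947 and 0.958. Of the 28 genes 0 were called in either test (0%), with 1 at an unadjusted p under 0.05 for the 5′ share and 2 for the 3′ share.

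The 3′ ends of the Y RNA pieces formed ladders over the terminal run of T. The Rny1 reads that began at base 84 and reached the run are written out here with its T in capitals, to show how far into the run they went.
Rny1 84 to 109: ttctcactactgcacttgactagtcT
Rny1 84 to 110: ttctcactactgcacttgactagtcTT
Rny1 84 to 111: ttctcactactgcacttgactagtcTTT
Rny1 84 to 112: ttctcactactgcacttgactagtcTTTT
The form with TT had 15 and 15 reads in wildtype versus 75 and 51 in Ago2 CD, the form with TTT 15, 23, 70 and 36, and the full run 1, 3, 15 and 6. The form with a single T had 6, 11, 9 and 27 reads, and forms that stopped ahead of the run, at bases 107 and 108, had 2, 13, 39 and 18 and 3, 4, 27 and 8 reads. Forms with part of the run thus far outnumbered the full one in each library. In RPM, the TT form stood at 1.45 and 1.62 in wildtype versus 3.44 and 3.35 in Ago2 CD, a log2 difference of 1.14 (SE 0.55), with an adjusted p of 1 by edgeR over 320 distinct reads.

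Rny3 reads from base 79 shared 1 most frequent form in all libraries, whereas their shorter forms differed between the 46 nt and the 50 nt libraries.
Rny3 79 to 97: actgcttcacttgaccagc
Rny3 79 to 99: actgcttcacttgaccagccT
Rny3 79 to 100: actgcttcacttgaccagccTT
Rny3 79 to 101: actgcttcacttgaccagccTTT
The form with TTT was the most frequent, with 32 and 31 reads in wildtype versus 86 and 47 in Ago2 CD, or 39.2% to 44.3% of the reads with this start in each library. It stood at 3.08, 3.35, 3.94 and 3.09 RPM, a log2 difference of 0.13 (SE 0.54) with an adjusted p of 1 by edgeR. The form that ended at base 97, ahead of the run, had 24.3% and 23.7% of these reads in the 46 nt libraries (wildtype 2 and Ago2 CD 1) and 2.56% and 1.67% in the 50 nt libraries. The form with a single T went the other way, with 4.29% and 9.28% in the 46 nt and 24.4% and 24.2% in the 50 nt libraries.

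Most 5′ pieces of Rny3 began at base 1 and differed in their last base. The forms that ended at bases 22 to 27 are shown with the growing part in capitals.
Rny3 1 to 22: ggttggtccgagagtagtggtG
Rny3 1 to 24: ggttggtccgagagtagtggtGTT
Rny3 1 to 25: ggttggtccgagagtagtggtGTTT
Rny3 1 to 27: ggttggtccgagagtagtggtGTTTAC
The form of 24 bases had 43 and 36 reads in wildtype versus 83 and 112 in Ago2 CD, or 4.14, 3.89, 3.802 and 7.36 RPM, a log2 difference of 0.47 (SE 0.64) with an adjusted p of 1 by edgeR. The genotypes overlapped at this length. Along the ladder the log2 difference was -0.24 at base 22, 0.10 at 23, 0.47 at 24, 0.90 at 25, 0.95 at 26 and 1.38 at 27, with SE between 0.58 and 0.78 and an adjusted p of 1 for each by edgeR.

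Reads that ended at base 25 or later, a limit chosen after the values had been seen, made up 18.9% and 35.2% of the base 1 reads in wildtype versus 48.1% and 38.5% in Ago2 CD. Both Ago2 CD libraries were above both wildtype libraries, although wildtype 2 and Ago2 CD 2 were close to each other (95% Clopper-Pearson intervals 28.8% to 42.0% and 33.9% to 43.2%). The difference was 16.2 percentage points (27.1% ± 11.5 against 43.3% ± 6.79, SD, n = 2), 19.5 points within the 50 nt and 12.9 points within the 46 nt libraries. By exact permutation p was 0.333, the smallest that this test can give with 2 libraries against 2.

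Of the 320 distinct structural RNA reads tested, 16 were pieces of these RNAs, 4 of Rny1 and 12 of Rny3. In 4 of the 16 both Ago2 CD libraries lay above both wildtype libraries and in 0 below, and over all 320 this was so for 27.5% and 3.12%. No distinct read was called by edgeR (0 of 320, 0%), with 10 at an unadjusted p under 0.05. DESeq2, run on all 18313 distinct reads, called 0, with 11 at an unadjusted p under 0.05.

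**Figure D3:**
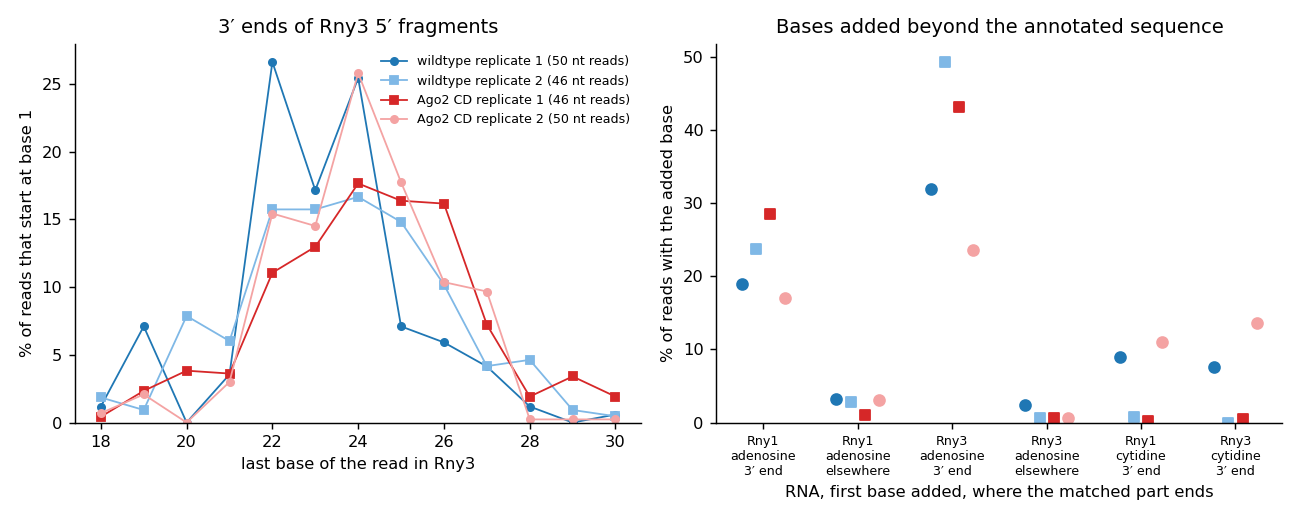
Left, share of the Rny3 reads starting at base 1 (y axis, %) by their last base (x axis), one line per library. Right, share of Y RNA reads (%) with an adenosine or cytidine added after the matched part, for matched parts ending in the last 5 bases (3′ end) or elsewhere, one point per library in the colours and shapes of the left panel; adenosine at the 3′ end ranged from 17.0% to 49.3%, and cytidine at the 3′ end from 7.61% to 13.6% in the 50 nt libraries and up to 0.763% in the 46 nt libraries.

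Some reads matched a Y RNA only after 1 to 3 bases had been taken off their 3′ end, and matched no annotated hairpin or structural RNA in full. Other copies of the Y RNAs in the genome were not analysed here, so a base called added may be encoded in one of them. The most frequent such reads are shown with the added bases in capitals.
Rny3 79 to 100 and A: actgcttcacttgaccagccttA
Rny1 84 to 110 and A: ttctcactactgcacttgactagtcttA
Rny3 79 to 99 and AT: actgcttcacttgaccagcctAT
Rny3 1 to 22 and C: ggttggtccgagagtagtggtgC
The first had 19, 18, 53 and 9 reads, the second 7, 14, 59 and 26 and the third 10, 9, 19 and 12, so that all 3 occurred in each library. Each continues a 3′ piece that stopped inside the run of T.

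Among reads whose matched part ended in the last 5 bases, an added sequence beginning with A was carried by 19.0% and 23.7% in wildtype versus 28.5% and 17.0% in Ago2 CD for Rny1. For Rny3 these shares were 32.0% and 49.3% in wildtype versus 43.2% and 23.6% in Ago2 CD. The genotypes overlapped for both RNAs, and for both the 46 nt libraries were the higher ones. Where the matched part ended elsewhere in the RNA, the share was at most 3.28% for Rny1 and 2.40% for Rny3 in any library, so that added A was mostly seen at the 3′ end of the RNA. Between the genotypes the share at the 3′ end differed by 1.42 percentage points for Rny1 and -7.26 for Rny3, less than the spread between libraries of a genotype (SD 3.30 and 8.19 for Rny1, 12.3 and 13.8 for Rny3, n = 2). That spread includes the difference between the 50 nt and the 46 nt libraries. Within the pairs Ago2 CD differed from wildtype by -8.37 points (50 nt) and -6.15 points (46 nt) for Rny3, lower in both. For Rny1 it differed by -2.04 and 4.88 points.

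An added C was mostly seen in the 50 nt libraries. At the 3′ end of Rny1 it stood at 9.0% and 11.0% in the 50 nt libraries (wildtype 1 and Ago2 CD 2) and at 0.763% and 0.218% in the 46 nt libraries, and for Rny3 at 7.61% and 13.6% against 0% and 0.472%. It also followed matched parts that ended elsewhere: the Rny3 read of bases 1 to 22 with C had 11 and 16 reads in the 50 nt libraries and 0 in both 46 nt libraries. The neuronal hairpins named above also separate these pairs of libraries, and the part of tissue composition or library preparation in the added C was not tested.

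Rny1 and Rny3 pieces differed in length as well as in end. The most frequent length of Rny1 reads was 27, 28, 27 and 27 nt in the 4 libraries, and that of Rny3 reads 22 (tied with 23), 23, 23 and 24 nt. Reads of 18 to 27 nt made up 77.4% to 82.2% of Rny1 reads and 92.5% to 97.8% of Rny3 reads, without overlap between the RNAs. This range includes the lengths of miRNAs, but it also covers most of the lengths counted here. The longest read of any member was 33 nt, well short of the reads' upper limit in each library. By limma the log2 difference in the odds of 18 to 27 nt between the genotypes was -0.11 for Rny1, -0.24 for Rny3 and -0.54 for Rn7sk (SE 1.05 and adjusted p 0.968 for each), and 0 of 28 genes were called (0%), with 0 at an unadjusted p under 0.05. This SE is the same for these RNAs because limma gave them a common spread, shared over the genes tested, in place of their own.

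**Figure D4:**
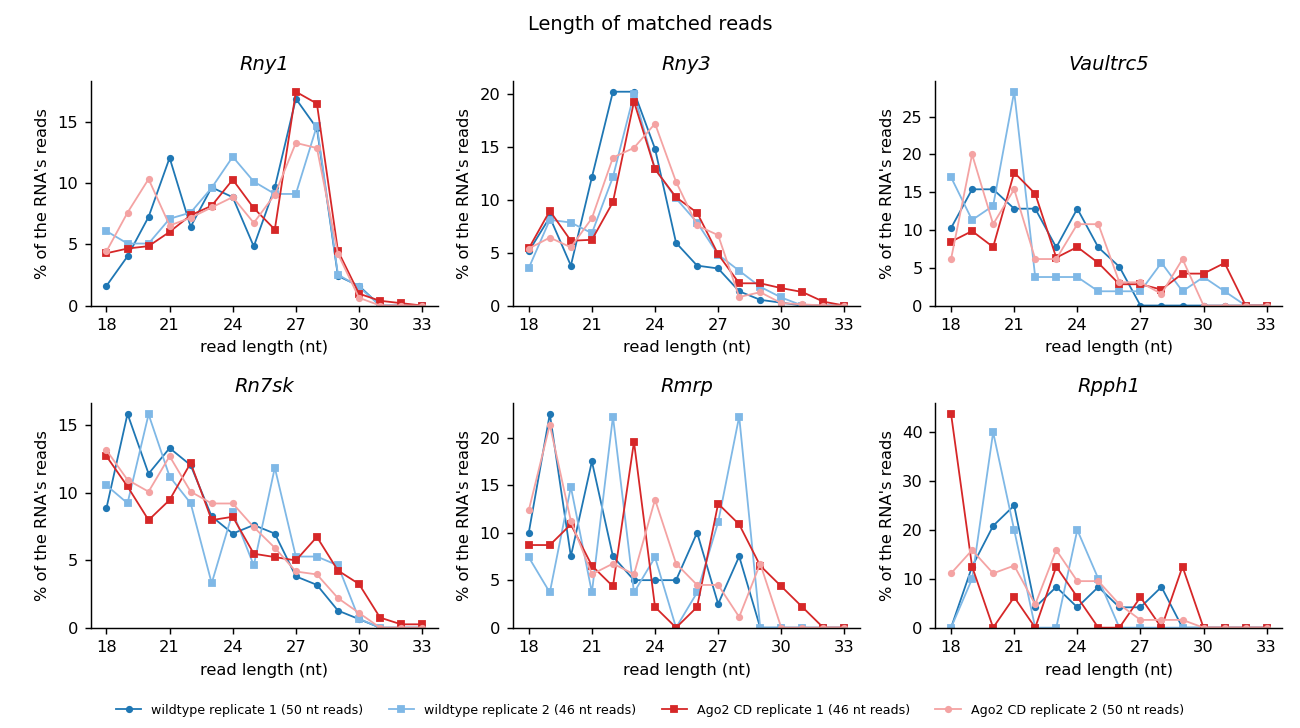
Share of each RNA's reads (y axis, %) by read length in nt (x axis), one line per library, for reads of 18 nt or more. Rny1 reads peak at 27 to 28 nt and Rny3 reads at 22 to 24 nt in all 4 libraries, and the lines of Rmrp and Rpph1 rest on few reads.

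In Vaultrc5, reads that began at base 1 made up 23.1% and 37.7% in wildtype (9 and 20 reads) versus 31.7% and 20% in Ago2 CD (45 and 13 reads). A second group began at bases 45 to 48, with 9, 9, 20 and 11 reads, or 23.1% and 17.0% of Vaultrc5 reads in wildtype versus 14.1% and 16.9% in Ago2 CD, and coverage was low between these blocks. The genotypes overlapped in the share of the first group, whereas both Ago2 CD shares of the second lay below both wildtype shares, nearly level in the nearest pair and without a test. The mean length of Vaultrc5 reads was 21.5 and 21.7 nt in wildtype and 22.9 and 22.2 nt in Ago2 CD, so that both Ago2 CD libraries were above both wildtype libraries by a mean of 0.975 nt, with p = 0.333 by exact permutation, the smallest possible. Many such values were compared per RNA, and others reached the same p by this test. The share within the first 6 bases was lower in both Ago2 CD libraries for Rn7sk and Rmrp, and the 3′ share of Rpph1 was higher. With 39 to 142 reads per library the Vaultrc5 shares are known only coarsely: the 95% Clopper-Pearson interval of the share within the first 3 bases was 11.1% to 39.3% in wildtype 1 and 24.8% to 40.8% in Ago2 CD 1.

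Rn7sk, on chromosome 9 from 78175303 to 78175633 on the minus strand, gave mostly internal pieces, with 93.4% to 96.2% of its reads neither starting in the first 3 nor ending in the last 5 bases. Its shares by position and its coverage include reads that also match other genes. Only 32.3% of its reads matched no other annotated gene. The clearest block is shown with the most frequent read in capitals, bases 248 to 273 of the RNA. That read was itself rare, with 2 and 6 reads in wildtype versus 2 and 2 in Ago2 CD.
Rn7sk 228 to 293: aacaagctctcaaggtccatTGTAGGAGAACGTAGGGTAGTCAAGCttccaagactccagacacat
Reads that began at bases 245 to 252 made up 17.7% and 35.5% in wildtype versus 22.9% and 14.9% in Ago2 CD, or 2.70, 5.83, 4.21 and 4.47 RPM, and the genotypes overlapped. Coverage was highest at base 257 in 3 libraries and at base 224 in Ago2 CD 2, where it reached 8.22 RPM. RNAfold pairs this block with bases 202 to 231, the other side of the same predicted hairpin.

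At the 3′ end of Rn7sk wildtype had 0 reads in each library and Ago2 CD had 3 and 6. With 3 counts taken as the limit of a count of 0, the wildtype share could be as high as 1.90% and 1.97%, above the 0.746% and 1.31% seen in Ago2 CD, so that no difference was detectable at this depth. The limma log2 difference in the odds was 1.80 (SE 0.56), with an unadjusted p of 0.0317 and an adjusted p of 0.443 over 28 genes. Since wildtype had no such read, the pseudocount of 0.5 sets this value: with 0.1 it was 3.99, with an adjusted p of 0.0841. Its 5′ share gave a log2 difference of -0.51 (SE 0.62, adjusted p 0.923).

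**Figure D5:**
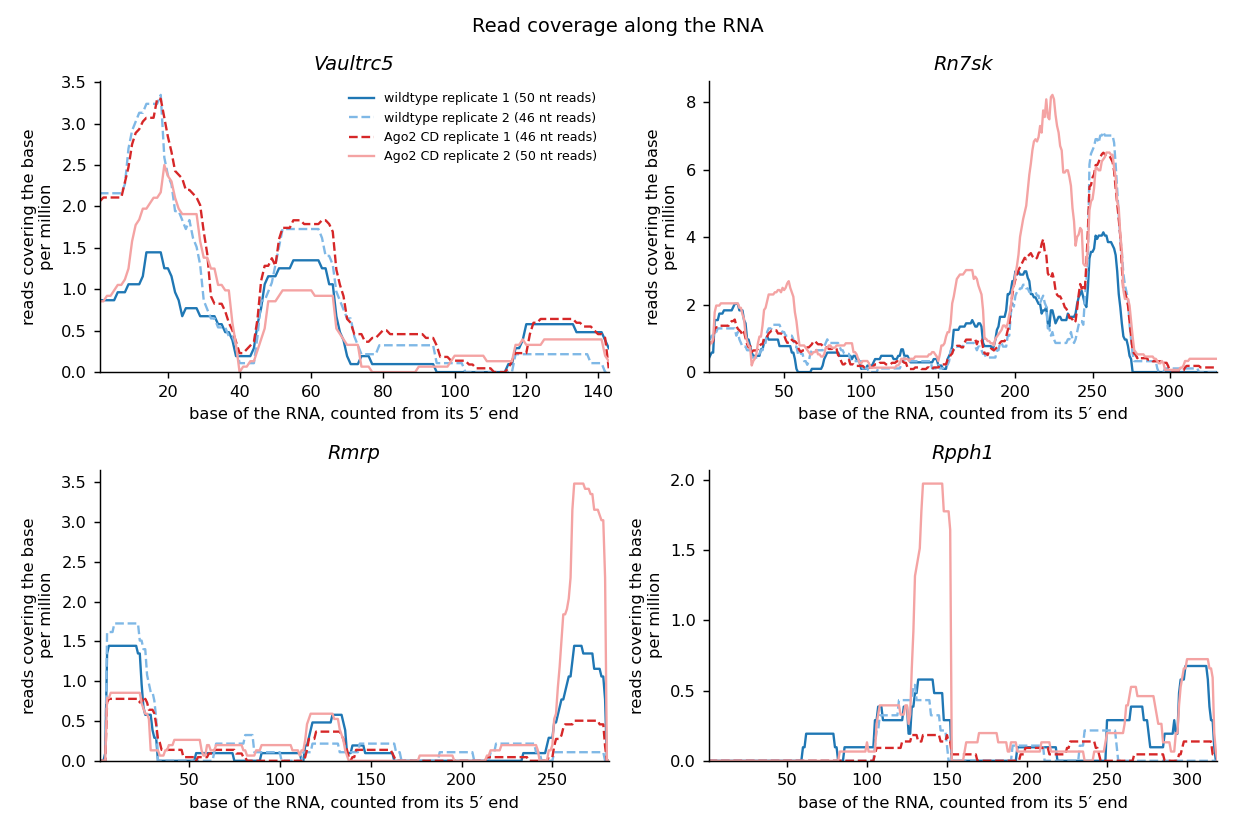
RPM that cover each base of Vaultrc5, Rn7sk, Rmrp and Rpph1 (x axis, base from the 5′ end), one line per library (solid 50 nt, dashed 46 nt libraries). The y axes differ, and reads that also match other genes are included. Ago2 CD replicate 2 stands out near base 224 of Rn7sk, near the 3′ end of Rmrp and before base 152 of Rpph1.

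Rmrp, on chromosome 4 from 43492783 to 43493063 on the minus strand, gave pieces of both ends. The longer of its annotated transcripts has 281 bases and the shorter 271. The most frequent reads of each end are in capitals.
Rmrp 1 to 40: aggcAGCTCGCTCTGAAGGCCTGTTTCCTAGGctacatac
Rmrp 242 to 281: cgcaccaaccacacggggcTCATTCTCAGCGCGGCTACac
The first block began at base 5 of the longer transcript, position 43493059, which is 1 base ahead of the shorter one. It held 13 and 15 reads in wildtype versus 16 and 12 in Ago2 CD, or 32.5%, 55.6%, 34.8% and 13.5% of Rmrp reads. In RPM this is 1.25 and 1.62 in wildtype against 0.733 and 0.789 in Ago2 CD, so both Ago2 CD libraries were lower, on these few reads and without a test.

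The other end of Rmrp went with single libraries. Reads that ended at bases 278 or 279 numbered 11 and 1 in wildtype versus 10 and 46 in Ago2 CD, so that Ago2 CD 2 alone held most of them. No Rmrp read began within the first 3 bases of the longer transcript in any library; with 27 to 89 Rmrp reads per library, 0 reads limit this share to no more than 3.37% to 11.1%.

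Rpph1 lies on chromosome 14 from 50807449 to 50807767 on the minus strand, and its most marked feature was a common end at base 152, the end of the capitals, which begin at base 130.
Rpph1 127 to 155: cagAGAGCAGGGCTCTACGCTTGGGCaga
This end had 3 and 0 reads in wildtype versus 2 and 25 in Ago2 CD, or 12.5%, 0%, 12.5% and 39.7% of Rpph1 reads. It too was mainly seen in Ago2 CD 2, and without that library it rests on 3 reads in wildtype and 2 in Ago2 CD. These counts include reads that also match other genes, and only 29.2% of all Rpph1 reads matched no other annotated gene. The start at base 130 rests on fewer, with 1 and 0 reads in wildtype versus 0 and 6 in Ago2 CD, whatever their end. No read began in the first 3 bases of Rpph1, for which 10 to 63 reads per library allow a share of up to 4.76% to 30%.

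Beside the 6 RNAs, 188 other genes of similar origin or related function were looked at: 7SL RNA, the spliceosomal U6, the brain RNA Bc1, telomerase RNA, genes related to RNase P RNA and the 5S ribosomal RNA genes. Of these 30 were assigned a read, 2 were tested and 0 of the 2 were called in either direction by edgeR. A read matching several genes went to a single gene, so a gene without an assigned read may still match some. Rn7s1, a 7SL RNA of the signal recognition particle, had 3.18 and 3.67 RPM in wildtype versus 3.21 and 5.66 in Ago2 CD, with a log2 difference of 0.37 (SE 0.52) and an adjusted p of 0.942. Bc1 had 15.0, 47.4, 114 and 25.1, but 97.4% to 98.7% of the reads assigned to it consisted of A alone, the A-rich part of that RNA, which do not identify the RNA they came from.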

How the data were processed

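The deposited counts give each distinct read sequence with its number of reads per library; adapters were removed with cutadapt, per the submitters' processing notes. Trimming settings, filters, aligner and build are not given in the sources used here, and the authors applied no normalization to these counts as far as the values show. Reads without undetermined bases were matched exactly to 2202 hairpins and to structural RNA genes of GENCODE vM21. A read matching several genes went to a member first, otherwise to the gene with most reads. Positions refer to the longest transcript, and no sequence of Vaultrc5 is reported here.

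Gene and fragment counts were tested with edgeR 4.0.16 (R 4.3.3; quasi-likelihood, library size the reads outside the Mir451a hairpin, factors of 1, filterByExpr), and shares with limma 3.58.1 on log2 odds with a pseudocount of 0.5, Ago2 CD against wildtype, two-sided, Benjamini-Hochberg, threshold 0.05. The SE given for edgeR is the absolute log2 difference divided by the square root of the test's F statistic. Alternatives were other library sizes, DESeq2 1.42.0, other filters, read lengths and end limits, blocks and left-out libraries. Structures came from RNAfold 2.7.2, and functions were tested on simulated data. Named are all members, up to 3 frequent reads of each with different starts, and 2 other genes. Members, lists and tests were chosen with earlier results of these data known. P-values rest on the spread between libraries, which edgeR, DESeq2 and limma share in part or wholly over the features tested. Member reads numbered 756 to 2214 per library; without molecular identifiers, intervals cover counting error only.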

Additional observations from a re-analysis of the deposited data

How the results depend on the processing

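No member was called under any alternative run, and of 216 single values recomputed 191 kept direction and side of the threshold and 25 changed direction. With read length as a block, 1 structural RNA gene was called higher and 1 lower, and 38 distinct reads higher and 2 lower, none of a member. In that edgeR fit the log2 difference was 0.75 for Rny1 (SE 0.32, adjusted p 0.305) and 0.46 for Rny3 (SE 0.33, adjusted p 0.533). It was 0.57 for Rn7sk (SE 0.29, adjusted p 0.334), 0.19 for Vaultrc5, 0.12 for Rmrp and 0.37 for Rpph1. For each RNA the SE was below that without a block. Without the block 0 member genes or reads had an unadjusted p under 0.05, and with it 1 gene and 2 reads did. With the replicate number as a block, no gene or read was called, and the log2 difference was 0.76 for Rny1, 0.46 for Rny3, 0.19 for Vaultrc5, 0.57 for Rn7sk, 0.07 for Rmrp and 0.14 for Rpph1. Same-numbered libraries deviated in opposite directions (r = -0.72 over 146 genes). That r rests on a single difference between libraries in each genotype, so it does not show how the libraries pair. The pairing crossed to the numbers is the read length block. Leaving out each library in turn gave 0 to 1 distinct reads called higher, the 1 without Ago2 CD replicate 1. With TMM factors the log2 difference turned to -0.11 for Vaultrc5, -0.16 for Rmrp, -0.10 for Rny3 1 to 24 and -0.45 for Rny3 79 to 101. With DESeq2 size factors it turned to -0.036 for Rmrp, -0.20 for Rny3 1 to 24 and -0.56 for Rny3 79 to 101, and DESeq2's own test gave -0.0081 for the last. Over the left-out libraries the log2 difference ran from 0.36 to 1.19 for Rny1, 0.33 to 0.59 for Rny3, 0.22 to 0.93 for Rn7sk, -0.15 to 0.52 for Vaultrc5, -0.68 to 0.79 for Rmrp (lowest without Ago2 CD 2), -1.21 to 1.27 for Rpph1 (likewise), -0.078 to 0.87 for Rny3 1 to 24 and -0.056 to 0.29 for Rny3 79 to 101. For the odds of the 5′ end it ran from -1.06 to 0.024 (Rny1) and -0.53 to 0.067 (Rny3), of the 3′ end from -0.10 to 0.54 and -0.55 to 0.48, and of 18 to 27 nt from -0.33 to 0.10, -1.09 to 0.61 and, for Rn7sk, -1.15 to 0.066. The cause of these changes was not tested. Reads extended into flanking genome were not run. Depth limits Rmrp and Rpph1 most, with 10 to 89 reads per library.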
